A study of Homo sapiens with 18 samples.

Results

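The effect of 1 h of feeding on RNA levels was compared between HEK-293E cells, which derive from human embryonic kidney, with and without the mTOR inhibitor Torin1. The quantity of interest was the interaction, that is, the difference between fed and starved cells with Torin1 minus the same difference without Torin1, on the log2 scale. It was fixed by the study's groups and used 12 of the 18 libraries, in 4 groups of 3. The groups were cells fed for 1 h with Torin1, cells starved with Torin1, cells fed for 1 h without it and cells starved without it. In every group, cells had been kept overnight in DMEM with 0.1% serum, and feeding meant a return to growth medium with 10% serum. For Torin1, neither dose nor duration nor vehicle is given in the sources used here, and all groups are 1 line. Since the labels leave unsaid whether replicates came from different cultures, the p values cover no more than the spread among the libraries at hand.

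Torin1 blocks the ATP site of the kinase mTOR and so inhibits both complexes in which mTOR acts, mTORC1, which couples amino acids and growth factors to protein synthesis, and mTORC2, which acts on AKT. Growth medium added to starved cells brings serum factors that act through the ERK pathway and SRF on immediate early genes, and it also brings fresh nutrients. Equal feeding effects with and without Torin1 give an interaction of 0. A positive interaction means a more positive feeding effect with Torin1 than without it, and a negative interaction a more negative one.

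The 12 libraries held between 10510689 and 13690035 counts each, so that a gene with no count in a library may have a true level as high as 0.219 to 0.285 CPM, with 3 counts as the limit and for counting error only. CPM are counts scaled to a common library size. In a principal component analysis of the 12, component 1 (68.4% of the variance) separated the libraries with Torin1, at −66.3 to −60.2, from those without it, at 55.5 to 73.4. All 12 genes of a list of HEK-293 identity passed the filter on low counts, with summed levels of 1628 to 1757 CPM in fed cells with Torin1, 1406 to 1678 CPM in starved cells with Torin1, 1039 to 1261 CPM in fed cells without it and 1079 to 1266 CPM in starved cells without it. VIM alone averaged 1262 CPM in fed and 1141 CPM in starved cells with Torin1, against 593 and 631 CPM without it. Torin1 raised VIM by 1.09 in fed and 0.85 in starved cells (log2). WT1, on the same list, had group means between 2.60 and 3.44 CPM. Of the markers of fibroblasts, immune cells and endothelial cells, 5 of 9, 2 of 10 and 2 of 7 passed that filter, and 0 of these had an unadjusted p under 0.05 or a call by edgeR, DESeq2's Wald test or limma-voom. These tests of the interaction do not show reads held by single libraries. The fibroblast markers summed to 16.25 to 19.16 CPM in fed and 17.63 to 18.65 CPM in starved libraries with Torin1. Without Torin1 the sums were 10.09 to 28.9 CPM in fed and 10.84 to 42.86 CPM in starved libraries.

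Few genes passed the test for a feeding effect that differed with Torin1. Of 16414 genes tested, 11 entries, or 0.067%, had an interaction with an adjusted p under 0.05 in edgeR's quasi-likelihood test, 2 of them positive and 9 negative (0.0122% and 0.0548% of genes). The positive ones were SLC30A1, a zinc exporter, and EGR3, an immediate early transcription factor. The negative ones were TXNIP and ARRDC4, a pair of arrestin-domain genes controlled by glucose sensors, KBTBD7, SIK1, the histone genes H4C8 and H4C14, and 3 entries that lie in ribosomal RNA genes and have identical counts. The 11 entries thus held 9 distinct sets of counts. At an unadjusted p under 0.05 there were 1072 genes (6.53%), of which 496 were positive and 576 negative. By comparison, Torin1 changed 10361 genes (63.1%, with 29.9% lowered) in fed cells and 10418 (63.5%, with 29.6% lowered) in starved cells, whereas feeding changed 66 genes (0.402%) with Torin1 and 106 (0.646%) without it. All Torin1 effects are relative to the scaling of the libraries. The TMM scaling factors of the 12 libraries were 1.0167 to 1.0714 with Torin1 and 0.9308 to 0.9802 without it. The shares of raised and lowered genes thus depend on that scaling.

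The count of called genes rests on few libraries. Leaving out 1 library at a time, it was 7, 3 and 5 without the first, the second and the third fed library with Torin1, and 9, 4 and 3 without each starved library with Torin1. Leaving out the fed libraries without Torin1 gave 39, 9 and 13 genes, and leaving out the starved ones 11, 5 and 4. With limma-voom only SLC30A1, KBTBD7 and TXNIP were called, and with the 12 libraries alone those 3 and EGR3. Without robust dispersions the calls of SIK1, H4C8 and ARRDC4 were lost, and with DESeq2's size factors those of H4C14, H4C8 and ARRDC4. The SLC30A1 and KBTBD7 calls were kept under all 23 other settings and left-out libraries that were tried.

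**Figure D1:**
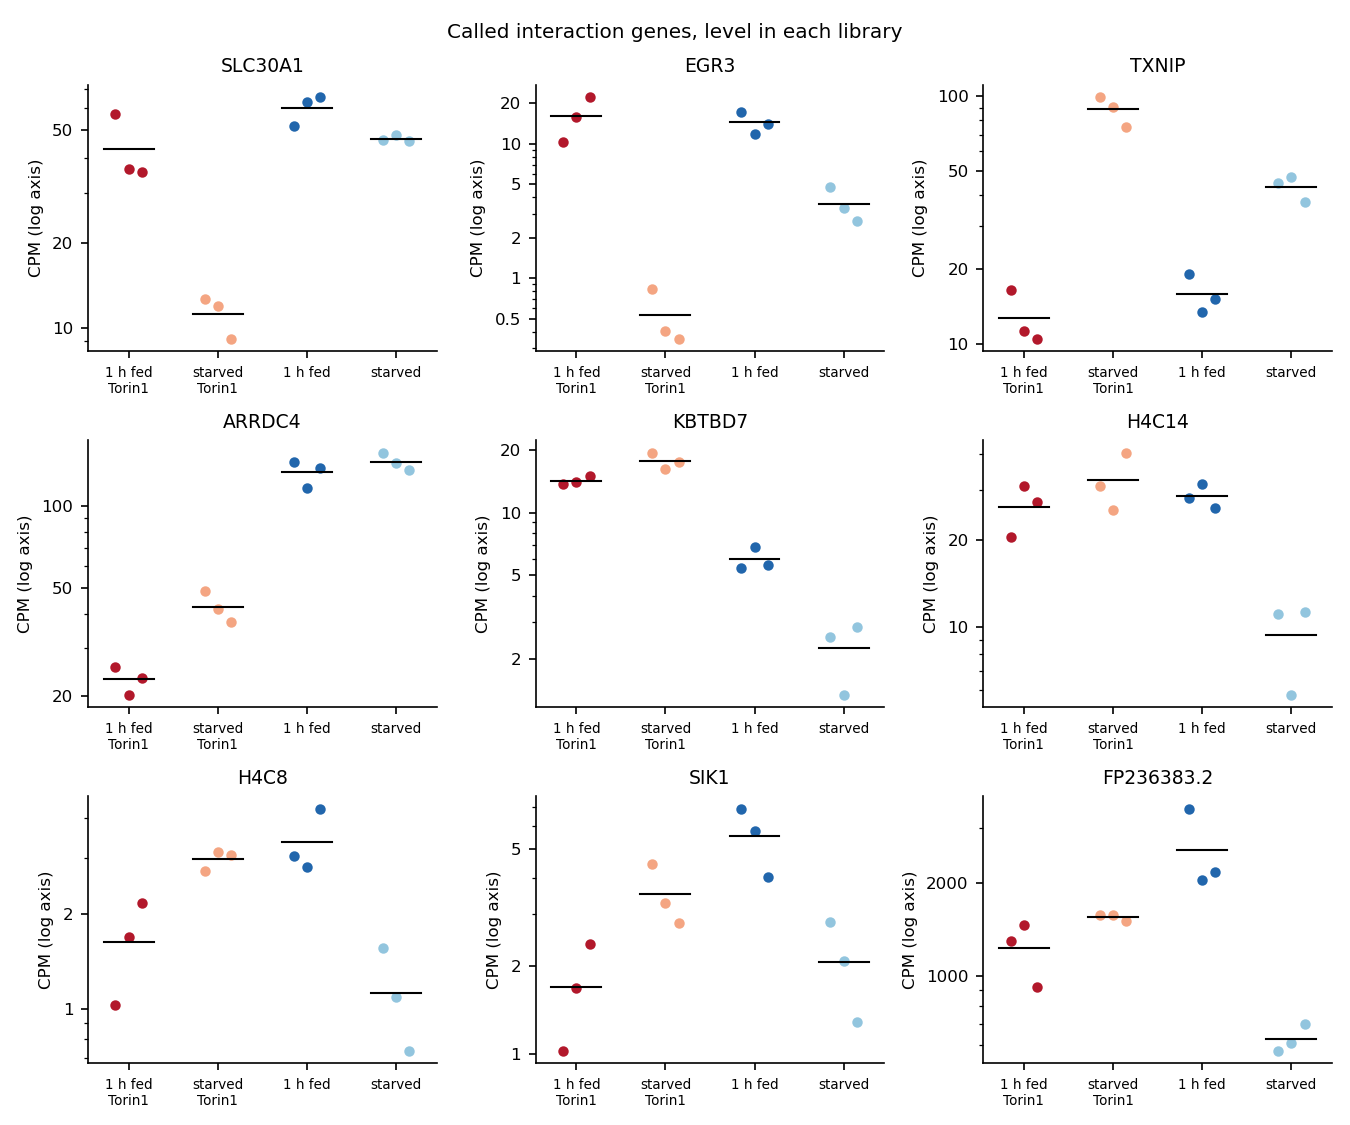
Level of each called gene in the 12 libraries (CPM, log axis), in fed and starved cells with Torin1 and in fed and starved cells without it, with 1 point per library and a bar at the group mean; FP236383.2 stands for 3 entries with identical counts. The lowest group of SLC30A1 and EGR3 is starved cells with Torin1, and that of KBTBD7, H4C14 and H4C8 is starved cells without it.

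In most of these genes, starved cells differed more between the Torin1 states than fed cells did. Of the 11 entries, 9 had a larger Torin1 effect in starved than in fed cells, beside 8471 of the 16414 genes tested. The Torin1 effect itself passed the test in starved cells for 10 of the 11 and in fed cells for 8. Over all 16414 genes it passed in 10418 and 10361. Starved cells without Torin1 had the lowest of the 4 group means in 6 entries, and starved cells with Torin1 in 2. Over all genes these groups were the lowest in 4427 and 4375. The feeding effect passed the test with Torin1 in 4 of the 11 and without it in 9, beside 66 and 106 of all genes. Each ribosomal entry was counted singly, although their counts are identical, so the 11 entries stand for 9 distinct sets of counts. Of the numbers given for the 11, only the 2 and the 4 include no ribosomal entry. All these numbers describe genes chosen by the same libraries, so they have no test of their own.

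**Figure D2:**
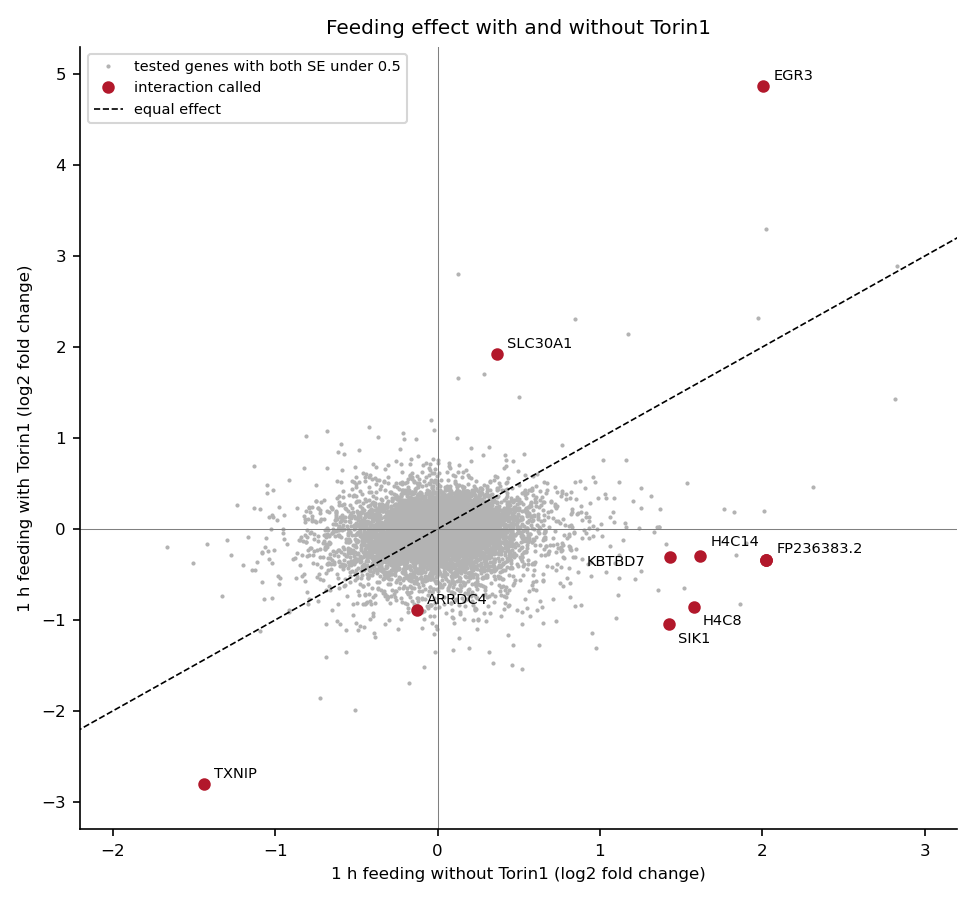
Feeding effect after 1 h with Torin1 (vertical, log2) against the effect without Torin1 (horizontal, log2), 1 point per tested gene with both standard errors under 0.5, and called interactions in red; the dashed line marks equal effects. SLC30A1 and EGR3 lie above the line, and the 9 negative entries below it, of which FP236383.2 stands for 3.

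SLC30A1 (ENSG00000170385) encodes ZnT1, which exports zinc across the plasma membrane and is known to be transcribed from metal response elements by the zinc sensor MTF1. Its promoter, from RefSeq (GRCh38.p14, chr1:211579112-211579411, minus strand, 250 bases before to 50 after the annotated start), is shown because it holds 2 copies of the metal response element core, TGCACNC read on either strand, in capitals at −49 and 24 from the start. Some 12.1% of the 35116 promoters in that table hold this core.
SLC30A1: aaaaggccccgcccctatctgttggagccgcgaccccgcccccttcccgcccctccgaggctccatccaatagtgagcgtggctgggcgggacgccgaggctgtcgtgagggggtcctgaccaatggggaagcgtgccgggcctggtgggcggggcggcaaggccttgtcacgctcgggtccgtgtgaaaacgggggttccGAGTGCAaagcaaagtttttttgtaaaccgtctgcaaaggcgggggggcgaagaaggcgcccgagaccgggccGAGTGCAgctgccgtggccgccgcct

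In cells with Torin1, SLC30A1 stood at 57.1, 36.5 and 35.6 CPM after feeding and at 12.7, 11.9 and 9.12 CPM in starvation. The libraries without Torin1 had 51.7, 63 and 65.8 CPM after feeding and 46.1, 48.2 and 45.8 CPM in starvation.
With Torin1, all 3 fed libraries lay above all 3 starved ones, whereas the starved libraries with Torin1 lay far below every library without it. Feeding raised SLC30A1 by 1.92 (log2, SE 0.16) with Torin1, with an adjusted p of 2.54e-07 in edgeR. Without Torin1 the feeding effect was 0.36 (SE 0.15, adjusted p = 0.442 in edgeR). The interaction was 1.56 (SE 0.22, 95% interval 1.10 to 2.01, adjusted p = 0.00362 in edgeR). Torin1 lowered SLC30A1 in both states, with log2 effects of −0.49 in fed cells and −2.05 in starved cells.

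Of 23 tested genes for metallothioneins, which bind zinc, and zinc transporters, SLC30A1 was the 1 whose interaction passed the test, and the list's median interaction was −0.03, beside 0.02 over all genes. Feeding raised 4 of the 23 with Torin1 (0.274% of all genes rose) and 1 without it (0.481% of all genes rose). MT1X, a metallothionein, was among them in both arms. The level of MT1X was 4.36, 3.78 and 2.59 CPM in fed and 1.11, 1.12 and 1.76 CPM in starved libraries with Torin1, against 2.11, 5.0 and 3.22 CPM in fed and 0.680, 0.418 and 0.367 CPM in starved libraries without it. It rose by 1.43 with Torin1 and 2.82 without it. Its interaction was −1.39 (adjusted p = 0.534 in edgeR), opposite in sign to that of SLC30A1 and not past the test. MT2A and MT1F, another pair of metallothioneins, named because they passed the feeding test, rose with Torin1 by 0.82 and 1.65, while their values without it were 0.41 and 1.00 with adjusted p values over the threshold. Metallothionein genes share near-identical sequence, so how reads were divided among them is uncertain.

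EGR3 (ENSG00000179388) is a zinc finger transcription factor that serum and growth factors induce within the hour. For EGR3, the libraries with Torin1 held 10.3, 15.9 and 22.4 CPM when fed and 0.835, 0.401 and 0.351 CPM when starved. Those without Torin1 held 17.4, 11.8 and 14.1 CPM when fed and 4.76, 3.34 and 2.66 CPM when starved.
The fed libraries of both Torin1 states overlapped, while the 3 starved libraries with Torin1 were the lowest of the 12. EGR3 rose with feeding by 4.87 (SE 0.37) with Torin1 and by 2.01 (SE 0.29) without it, and its interaction of 2.86 (SE 0.49, 95% interval 1.86 to 3.87) had an adjusted p of 0.0112 in edgeR. In starved cells Torin1 lowered it, with a log2 effect of −2.69 (adjusted p = 1.78e-06), and in fed cells the Torin1 effect was 0.17 (adjusted p = 0.571). The starved level with Torin1 is close to the limit of a count of 0. Without the second or the third starved library with Torin1 the adjusted p was 0.108 or 0.0756, and limma-voom gave 0.205.

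Among 33 tested immediate early transcription factors, EGR3 was the 1 called, while 14 were positive and 1 negative at an unadjusted p under 0.05, where all genes gave 3.02% and 3.51%, and their median interaction was 0.46, beside 0.02 over all genes. Feeding raised 10 of the 33 with Torin1 (0.274% of all genes) and 4 without it (0.481%). EGR1, EGR3 and FOSB rose in both arms. ATF3, EGR2, FOS, FOSL2, MCL1, NR4A1 and SRF rose with Torin1 and did not pass the test without it, and JUN rose without Torin1 (0.97) and did not pass with it (0.52). In edgeR the interaction did not pass the test for any of these but EGR3, so a difference between arms is not shown for them. DESeq2's Wald test called FOSL2, NR4A1 and SRF besides EGR3, and limma-voom called 0 of the 33.

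EGR1, the founding member of the EGR family, had nearly the same log2 response in both arms from very different levels. EGR1 had 19, 23.5 and 30.4 CPM in the 3 fed libraries with Torin1 and 4.87, 2.24 and 2.54 CPM in the 3 starved ones with Torin1. Without Torin1 it had 153, 77 and 84.1 CPM in fed libraries and 21.1, 12 and 11.3 CPM in starved ones. The first fed library without Torin1 stood well above the other two. EGR1 rose by 2.89 with Torin1 and 2.83 without it, and its interaction was 0.06 with a 95% interval of −1.06 to 1.17, which allows a difference of more than 2-fold either way. Torin1 lowered EGR1 in both states, at −2.10 in fed cells and −2.16 in starved cells.

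FOSB is a subunit of the AP-1 transcription factor. In cells with Torin1, FOSB stood at 18.7, 33.3 and 37 CPM after feeding and at 4.18, 1.84 and 2.90 CPM in starvation. The libraries without Torin1 had 24.8, 16.4 and 15.7 CPM after feeding and 5.93, 5.01 and 3.03 CPM in starvation. Fed and starved libraries did not overlap in either arm. FOSB rose by 3.30 with Torin1 and 2.02 without it, and the interaction was 1.28 (adjusted p = 0.54 in edgeR). FOSL2 is another AP-1 subunit. The level of FOSL2 was 12.1, 11.7 and 11.2 CPM in fed and 4.39, 3.13 and 3.42 CPM in starved libraries with Torin1, against 7.35, 5.0 and 3.93 CPM in fed and 6.03, 3.76 and 5.14 CPM in starved libraries without it. The fed libraries with Torin1 were the highest of the 12. FOSL2 rose by 1.66 with Torin1, its value without Torin1 was 0.13, and the interaction of 1.54 had an adjusted p of 0.0989 in edgeR.

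SRF is the serum response factor that binds CArG boxes in immediate early promoters. For SRF, the libraries with Torin1 held 116, 123 and 119.8 CPM when fed and 87.8, 76.5 and 83 CPM when starved. Those without Torin1 held 171, 218 and 224 CPM when fed and 191, 218 and 212 CPM when starved. Fed libraries lay above starved ones with Torin1 and overlapped with them without it. SRF rose by 0.53 with Torin1 (adjusted p = 0.00284 in edgeR), and its feeding effect without Torin1 was −0.02. Its interaction was 0.55 (adjusted p = 0.109 in edgeR). Among 19 tested genes of SRF, YAP and the actin cytoskeleton, 0 were called in edgeR or limma-voom and 1, CCN1, by DESeq2's Wald test. In edgeR 4 were positive and 0 negative at an unadjusted p under 0.05, beside 3.02% and 3.51% of all genes, and the median was 0.15. CCN1 is a matricellular protein induced through SRF and YAP. CCN1 had 18.3, 31.5 and 37.7 CPM in the 3 fed libraries with Torin1 and 11.4, 7.05 and 8.42 CPM in the 3 starved ones with Torin1. Without Torin1 it had 18.2, 14.1 and 13.5 CPM in fed libraries and 11.3, 14.2 and 11.9 CPM in starved ones. The groups with Torin1 did not overlap, and those without it did. CCN1 rose by 1.70 with Torin1, and its feeding effect without Torin1 was 0.29. Its interaction was 1.42 (adjusted p = 0.0989 in edgeR).

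Of 17 tested genes that feed back on ERK signalling, 0 were called in edgeR, DESeq2's Wald test or limma-voom. In edgeR 5 were positive and 2 negative at an unadjusted p under 0.05, beside 3.02% and 3.51% of all genes. DUSP8 and DUSP7 are phosphatases of MAP kinases, and their interactions had opposite signs. In cells with Torin1, DUSP8 stood at 26.9, 37.3 and 36.8 CPM after feeding and at 18.6, 15.1 and 16.9 CPM in starvation. The libraries without Torin1 had 46.2, 29.9 and 30.3 CPM after feeding and 36, 35 and 26.9 CPM in starvation. Fed and starved libraries were apart with Torin1 and overlapped without it. DUSP8 rose by 1.0 with Torin1, and its feeding effect without Torin1 was 0.12. Its interaction was 0.88 (adjusted p = 0.215 in edgeR), and it was called with no filter on low counts and without the first fed library without Torin1. The level of DUSP7 was 26.6, 27.7 and 28.3 CPM in fed and 33.2, 31.4 and 35.7 CPM in starved libraries with Torin1, against 46.6, 47.8 and 50.7 CPM in fed and 42.3, 39.2 and 42.4 CPM in starved libraries without it. Fed libraries were below starved ones with Torin1 and above them without it. The feeding effect of DUSP7 was −0.28 with Torin1 and 0.23 without it, and neither passed the test. Its interaction was −0.51 (adjusted p = 0.269 in edgeR).

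**Figure D3:**
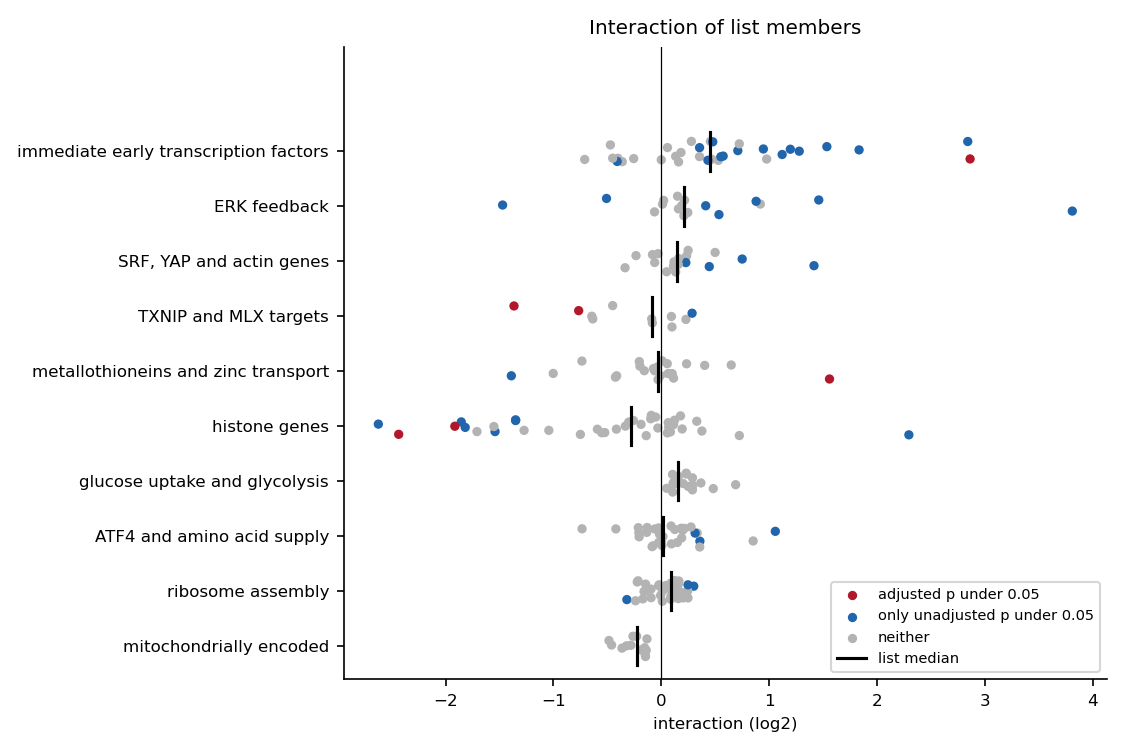
Interaction (log2) of the tested members of 10 gene lists, 1 point per gene, red where the adjusted p was under 0.05, blue where only the unadjusted p was, and a bar at the list median. Immediate early transcription factors have a median of 0.46 and histone genes one of −0.28, beside 0.02 over all genes.

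TXNIP (ENSG00000265972) encodes an arrestin-domain protein that binds thioredoxin and restrains glucose uptake. Its transcription is known to follow glucose through MondoA, ChREBP and their partner MLX, which bind a carbohydrate response element. The RefSeq promoter (GRCh38.p14, chr1:145996530-145996829, minus strand, 250 bases before to 50 after the start) is shown because it holds the full element, a pair of half-sites CACGNG set 5 bases apart, in capitals at −88, which 20 of 35116 promoters hold on either strand (0.057%). The other capitals mark a forkhead element, GTAAACA, at −124, held by 3.42% of promoters.
TXNIP: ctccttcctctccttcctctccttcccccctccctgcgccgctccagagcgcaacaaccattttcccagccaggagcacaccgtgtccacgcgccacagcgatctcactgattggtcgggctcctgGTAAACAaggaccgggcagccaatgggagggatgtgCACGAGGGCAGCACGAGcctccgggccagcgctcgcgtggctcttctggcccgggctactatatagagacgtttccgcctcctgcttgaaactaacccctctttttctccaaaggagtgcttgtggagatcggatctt

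For TXNIP, the libraries with Torin1 held 16.5, 11.3 and 10.4 CPM when fed and 99.8, 90.6 and 75.4 CPM when starved. Those without Torin1 held 19.2, 13.5 and 15.1 CPM when fed and 44.6, 47.4 and 37.4 CPM when starved.
Starved libraries lay above fed ones in both arms, and the starved libraries with Torin1 were the highest of the 12. Fed libraries of both Torin1 states overlapped. TXNIP fell on feeding in both arms, with log2 effects of −2.81 (SE 0.16) with Torin1 and −1.44 (SE 0.16) without it. The interaction was −1.37 (SE 0.22, 95% interval −1.82 to −0.91, adjusted p = 0.00806 in edgeR). Torin1 raised TXNIP by 1.04 in starved cells, and in fed cells its effect was −0.33 (adjusted p = 0.0931). Without the second fed library with Torin1 the interaction's adjusted p was 0.0523.

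ARRDC4 (ENSG00000140450), a paralog of TXNIP under the same glucose sensors, also fell on feeding in cells with Torin1. Its RefSeq promoter (GRCh38.p14, chr15:97960453-97960752, plus strand) is shown beside that of TXNIP. The full carbohydrate response element is not in this window, and capitals mark an E-box, CACGTG, at −210, held by 7.26% of promoters.
ARRDC4: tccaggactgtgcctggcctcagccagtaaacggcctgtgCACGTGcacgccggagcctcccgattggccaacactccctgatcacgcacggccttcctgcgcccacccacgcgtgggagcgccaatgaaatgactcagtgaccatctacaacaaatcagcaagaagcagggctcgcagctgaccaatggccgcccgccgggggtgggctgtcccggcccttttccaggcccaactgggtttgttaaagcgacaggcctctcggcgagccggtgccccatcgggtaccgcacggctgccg

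ARRDC4 had 25.5, 20.1 and 23.3 CPM in the 3 fed libraries with Torin1 and 48.5, 41.8 and 37.4 CPM in the 3 starved ones with Torin1. Without Torin1 it had 146, 116 and 138 CPM in fed libraries and 157, 144 and 136 CPM in starved ones.
All libraries with Torin1 lay below all libraries without it, and fed and starved libraries were apart with Torin1 and overlapped without it. With Torin1, ARRDC4 fell by 0.89 on feeding (SE 0.12, adjusted p = 3.78e-05 in edgeR), and the value without Torin1 was −0.13 (adjusted p = 0.771). The interaction was −0.77 (SE 0.16, adjusted p = 0.0478 in edgeR), close to the threshold. It was called without the second fed or the first starved library without Torin1 and missed the threshold without each of the other 10 libraries, with adjusted p values up to 0.194. TXNIP and ARRDC4 were 2 of 11 tested genes on the list of MLX targets and partners, whose median interaction was −0.09. Of 21 tested genes of glucose uptake and glycolysis, 0 were called in edgeR, DESeq2's Wald test or limma-voom and 0 had an unadjusted p under 0.05 in edgeR. All 21 estimates were positive, between 0.05 and 0.69, where 8658 of the 16414 genes tested were positive.

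KBTBD7 (ENSG00000120696) encodes a BTB-kelch protein that selects substrates for cullin-3 ubiquitin ligase. In cells with Torin1, KBTBD7 stood at 13.7, 14 and 15 CPM after feeding and at 19.4, 16.2 and 17.4 CPM in starvation. The libraries without Torin1 had 5.42, 6.86 and 5.63 CPM after feeding and 2.53, 1.34 and 2.85 CPM in starvation.
The starved libraries with Torin1 were the highest and those without it the lowest, and no 2 of the 4 groups overlapped. Feeding raised KBTBD7 by 1.43 (SE 0.22, adjusted p = 0.000704 in edgeR) without Torin1, and with it the value was −0.31 (adjusted p = 0.469). The interaction was −1.74 (SE 0.27, 95% interval −2.30 to −1.19, adjusted p = 0.00362 in edgeR). Torin1 raised it by 1.25 in fed and 2.99 in starved cells. Of 27 tested genes on a list of KBTBD and related BTB-kelch genes, KBTBD7 was the 1 called, and the list's median was 0.01.

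Replication-dependent histone genes lie in clusters, are mostly intronless and are transcribed in S phase into RNAs that lack a poly(A) tail. Of 69 histone genes listed, 38 passed the filter, 2 had a negative interaction past the test, 8 were negative and 1 positive at an unadjusted p under 0.05, beside 3.51% and 3.02% of all genes, and the median was −0.28. DESeq2's Wald test called 4 of them, H3C14 and H3C15 besides H4C14 and H4C8, and limma-voom 0. Without Torin1, where 0.481% of all genes rose, feeding raised 6 of the 38, namely H1-4, H2BC18, H3C14, H3C15, H4C14 and H4C8. With Torin1 none of the 6 passed the test in edgeR, and their feeding effects lay between −0.85 for H4C8 and 0.22 for H1-4. H3C14 and H3C15 are copies with identical counts.

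H4C14 (ENSG00000270882) and H4C8 (ENSG00000158406) both encode histone H4. Their RefSeq promoters (GRCh38.p14, chr1:149832407-149832706, plus strand, and chr6:26285485-26285784, minus strand) are shown because both hold GGTCC, part of the known H4 subtype element, at −46 from the start. The capitals mark GGTCC on either strand, which gives 1 further match in each, at −162 in H4C14 and −86 in H4C8. This short word is in 46.3% of promoters.
H4C14: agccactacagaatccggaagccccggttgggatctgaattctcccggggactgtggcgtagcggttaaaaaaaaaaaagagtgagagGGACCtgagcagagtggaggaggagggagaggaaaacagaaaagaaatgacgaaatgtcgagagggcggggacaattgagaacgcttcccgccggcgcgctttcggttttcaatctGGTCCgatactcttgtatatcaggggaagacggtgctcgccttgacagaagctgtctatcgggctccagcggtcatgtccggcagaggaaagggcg
H4C8: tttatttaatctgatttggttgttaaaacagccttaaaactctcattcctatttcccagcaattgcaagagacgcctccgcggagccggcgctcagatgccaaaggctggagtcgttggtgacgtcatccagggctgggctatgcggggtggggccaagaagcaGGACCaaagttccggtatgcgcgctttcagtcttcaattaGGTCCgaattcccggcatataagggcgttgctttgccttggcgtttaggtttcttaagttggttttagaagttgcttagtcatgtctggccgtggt

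The level of H4C14 was 20.5, 30.8 and 27.3 CPM in fed and 31, 25.6 and 40.4 CPM in starved libraries with Torin1, against 28.1, 31.4 and 25.8 CPM in fed and 11.1, 5.77 and 11.2 CPM in starved libraries without it.
The starved libraries without Torin1 were the lowest of the 12, and the other 3 groups overlapped. The feeding effect was −0.30 (adjusted p = 0.634) with Torin1, and feeding raised H4C14 by 1.62 (adjusted p = 0.00416 in edgeR) without it. The interaction was −1.91 (SE 0.33, adjusted p = 0.0478 in edgeR). It was called without the second starved library with or without Torin1 and missed the threshold without each of the other 10 libraries, with adjusted p values up to 0.191.

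H4C15 is a near-identical copy of H4C14, and how its reads were divided is uncertain. For H4C15, the libraries with Torin1 held 20.02, 24.2 and 25.2 CPM when fed and 13.9, 15.6 and 12.6 CPM when starved. Those without Torin1 held 2.20, 1.78 and 6.88 CPM when fed and 4.37, 4.93 and 1.47 CPM when starved. In cells without Torin1 H4C15 was low in fed and starved libraries alike, and its own interaction was 0.72 (adjusted p = 0.866 in edgeR). With the counts of both copies summed, the fed and starved libraries had 40.5, 55 and 52.4 CPM and 44.8, 41.2 and 52.9 CPM with Torin1, against 30.4, 33.1 and 32.7 CPM and 15.5, 10.7 and 12.7 CPM without it. On that sum the interaction was −1.22 (SE 0.20, adjusted p = 0.00892 in edgeR), smaller than on H4C14 alone. The summed copies of H3C14 and H3C15 had an interaction of −1.34 (SE 0.26, adjusted p = 0.0388), whereas each entry alone had −1.35 (adjusted p = 0.101). H4C8 had 1.03, 1.68 and 2.16 CPM in the 3 fed libraries with Torin1 and 2.72, 3.13 and 3.07 CPM in the 3 starved ones with Torin1. Without Torin1 it had 3.03, 2.80 and 4.29 CPM in fed libraries and 1.56, 1.09 and 0.735 CPM in starved ones. At these levels H4C8 had an interaction of −2.43 (SE 0.49, adjusted p = 0.0478 in edgeR). It was called without the first or second fed library or the first starved library without Torin1, missed the threshold without each of the other 9 (adjusted p values up to 0.157), and missed it with DESeq2's size factors (adjusted p = 0.0518).

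**Figure D4:**
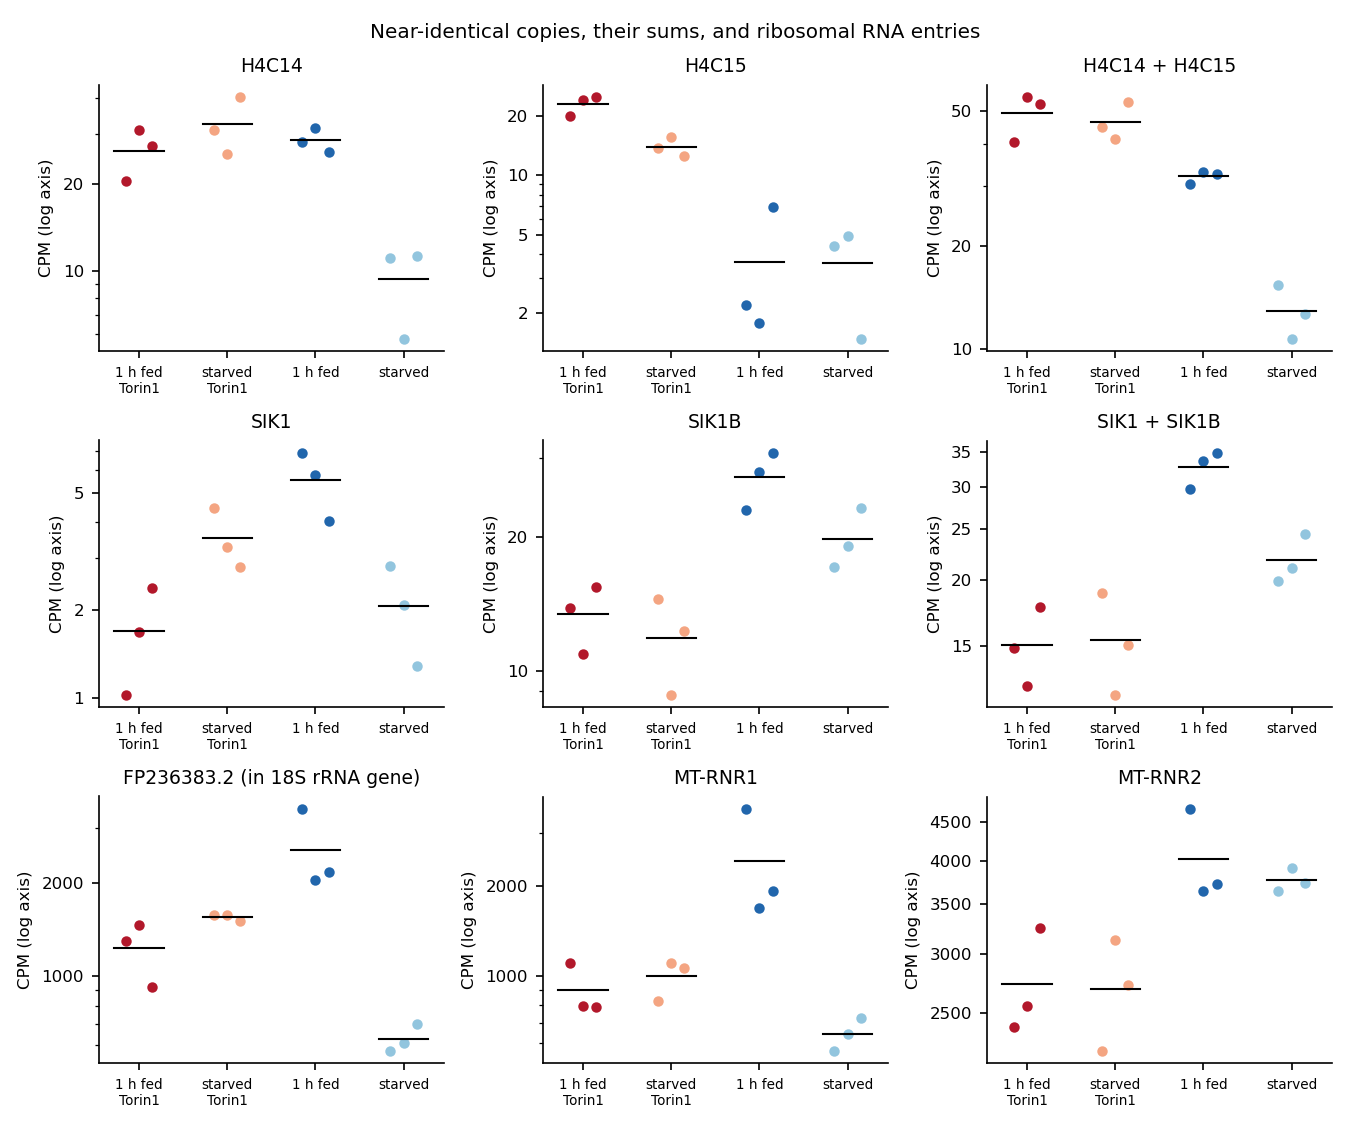
Level of near-identical copies, of their sums and of ribosomal RNA entries in the 12 libraries (CPM, log axis), in fed and starved cells with Torin1 and in fed and starved cells without it, with a bar at the group mean. The sum of H4C14 and H4C15 keeps its lowest group, starved cells without Torin1, and the sum of SIK1 and SIK1B does not keep the pattern of SIK1.

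SIK1 (ENSG00000142178), a salt-inducible kinase of the AMPK family, was called on low counts. In cells with Torin1, SIK1 stood at 1.03, 1.68 and 2.37 CPM after feeding and at 4.46, 3.29 and 2.81 CPM in starvation. The libraries without Torin1 had 6.89, 5.76 and 4.02 CPM after feeding and 2.82, 2.09 and 1.29 CPM in starvation. Its interaction was −2.47 (SE 0.49, adjusted p = 0.0414 in edgeR). SIK1B is a near-identical copy that took most of the reads. The level of SIK1B was 13.9, 10.9 and 15.4 CPM in fed and 14.5, 8.82 and 12.3 CPM in starved libraries with Torin1, against 23, 28 and 30.9 CPM in fed and 17.1, 19.1 and 23.2 CPM in starved libraries without it. The interaction of SIK1B was −0.29 (adjusted p = 0.857). Summed, the copies had 14.9, 12.6 and 17.8 CPM in fed and 18.9, 12.1 and 15.1 CPM in starved libraries with Torin1, against 29.8, 33.7 and 34.9 CPM in fed and 19.9, 21.1 and 24.5 CPM in starved libraries without it, and the interaction was −0.62 (SE 0.21, adjusted p = 0.526 in edgeR). The call for SIK1 was therefore lost once the copies were counted together, and it was kept without the third fed library with Torin1, the first or the third fed one without it or the first starved one without it, and lost without each of the other 8 (adjusted p values up to 0.136).

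The 3 remaining entries, FP236383.2, FP671120.3 and FP236383.3, are annotated as long noncoding RNAs of 923 bases. All 923 bases of each lie inside an 18S ribosomal RNA gene of RefSeq, on the opposite strand, and the 3 entries had identical counts. As strand use in counting is not given, reads of 18S ribosomal RNA cannot be told apart from reads of these entries. For FP236383.2, the libraries with Torin1 held 1298, 1462 and 925 CPM when fed and 1578, 1573 and 1504 CPM when starved. Those without Torin1 held 3456, 2039 and 2158 CPM when fed and 574, 609.9 and 700.1 CPM when starved.
The starved libraries without Torin1 were the lowest of the 12 and the fed ones without Torin1 the highest, with the first fed library standing well above the other two. The interaction was −2.36 (SE 0.35, adjusted p = 0.0414 in edgeR). It kept its call without each of the 3 fed libraries without Torin1 and missed the threshold without each of the other 9, with adjusted p values up to 0.157.

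Another ribosomal RNA had its highest values in the same group. MT-RNR1, the mitochondrial 12S ribosomal RNA, was not among the 30 genes with the smallest p and is named because of its values. MT-RNR1 had 1108, 799 and 790.3 CPM in the 3 fed libraries with Torin1 and 827, 1111 and 1065 CPM in the 3 starved ones with Torin1. Without Torin1 it had 3610.0, 1689 and 1928 CPM in fed libraries and 563, 643 and 727 CPM in starved ones. The same first fed library without Torin1 was again the highest. The interaction of MT-RNR1 was −2.06 (SE 0.65, adjusted p = 0.526 in edgeR), and that of MT-RNR2, the mitochondrial 16S ribosomal RNA, was −0.07 (adjusted p = 0.972). The 13 mitochondrially encoded protein genes had a median of −0.23, between −0.49 and −0.13, with 0 called by edgeR, DESeq2's Wald test or limma-voom and 0 at an unadjusted p under 0.05 in edgeR. The amount of ribosomal RNA left in each library was not measured apart from these entries, and its part in the values was not tested.

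Some genes responded to feeding in both arms. Feeding changed 7 genes in the same direction with and without Torin1, and 0 in opposite directions. They were EGR1, EGR3, FOSB, ID1, MT1X, TXNIP and GAS1, and 6 of the 7 had the larger estimate with Torin1. Only EGR3 and TXNIP had a called interaction in edgeR, and EGR1 is among the 6 with 2.89 against 2.83. The 7 were chosen by these same feeding effects, so the count of 6 has no test of its own. The share over all genes is not given here. ID1 is an inhibitor of basic helix-loop-helix factors and a target of BMP signalling. In cells with Torin1, ID1 stood at 16.5, 24.6 and 23 CPM after feeding and at 5.29, 2.97 and 4.56 CPM in starvation. The libraries without Torin1 had 9.73, 13.8 and 16.4 CPM after feeding and 3.01, 3.51 and 3.58 CPM in starvation. Fed and starved libraries did not overlap in either arm. ID1 rose by 2.32 with Torin1 and 1.98 without it, and the 95% interval of the interaction ran from −0.29 to 0.97. GAS1, known for its expression in growth-arrested cells, fell in both arms, with −1.01 with Torin1 and −0.62 without it, and had an interaction of −0.39 (adjusted p = 0.663 in edgeR). Across the 11663 genes that averaged 5 CPM or more, the feeding effects with and without Torin1 had a Pearson correlation of 0.22, a description across genes, which are not independent replicates.

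A gene that passed the test in 1 arm is not thereby shown to differ between the arms. Of 59 genes called for feeding only with Torin1, 2 had a called interaction, and of 99 called only without Torin1, 7 did, beside 0.067% of all genes. The 7 include all the ribosomal entries, which have identical counts, and SIK1, whose call was lost once the copies were summed. The median SE of the interaction was 0.22 over all genes and 0.17 over those with at least 5 CPM. The 95% interval lay within 2-fold either way for 11052 genes (67.3%), and for 10765 of the 11663 with at least 5 CPM (92.3%). Of 165 genes called for feeding in either arm, 89 (53.9%) had such an interval. An unadjusted interaction p under 0.05 was found for 121 of them, beside 6.53% of all genes. The 165 were chosen by feeding effects that are themselves terms of the interaction, in the same libraries. A high share of small interaction p values among them is thus built in by the choice and is no result about these genes. Where an interval lies within 2-fold either way, a larger interaction lies outside it.

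**Figure D5:**
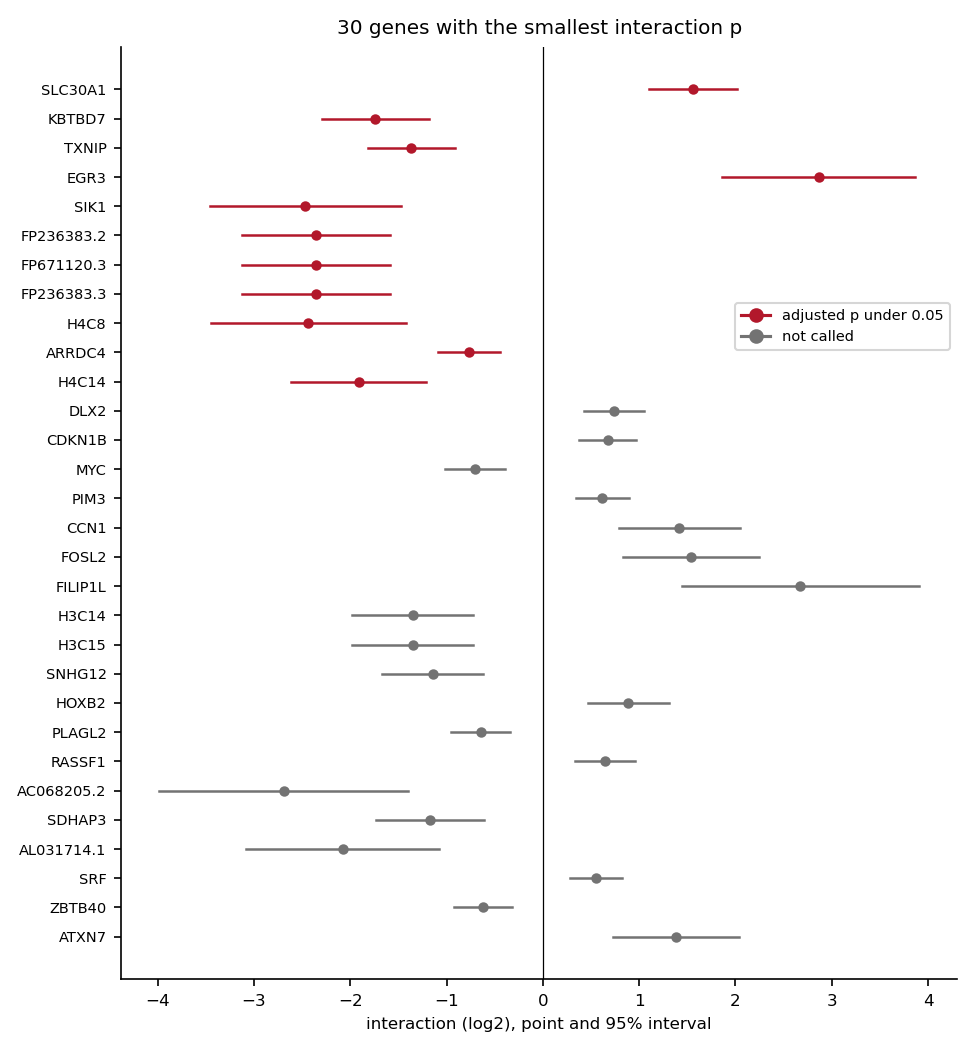
Interaction (log2) with its 95% interval for the 30 genes with the smallest p, called ones in red and the others in grey. The 11 called entries come first, and the intervals of SIK1, H4C8, EGR3 and FILIP1L are among the widest.

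The 19 genes next in line by p, among those with a mean of at least 1 CPM over the 12 libraries, did not pass the adjusted threshold. They are given as values here or above. DLX2 is a homeobox transcription factor. The level of DLX2 was 88.3, 92.4 and 97.7 CPM in fed and 73.4, 59.4 and 63.5 CPM in starved libraries with Torin1, against 102, 105 and 145 CPM in fed and 133, 152 and 128 CPM in starved libraries without it. The fed libraries with Torin1 lay above the starved ones with it, and without Torin1 the groups overlapped. The interaction of DLX2 was 0.74 (adjusted p = 0.0591 in edgeR). With library totals in place of scaling factors, or by DESeq2's Wald test, DLX2 did pass. DESeq2's Wald test called others of the 19 too, among them CDKN1B, MYC, RASSF1, PLAGL2, FILIP1L and ATXN7. CDKN1B encodes the cyclin-dependent kinase inhibitor p27. For CDKN1B, the libraries with Torin1 held 50.2, 62.3 and 59.3 CPM when fed and 55.6, 54.6 and 53 CPM when starved. Those without Torin1 held 24.7, 23.1 and 28.7 CPM when fed and 37.7, 41 and 37 CPM when starved. Fed and starved libraries overlapped with Torin1 and were apart without it. The feeding effect was 0.07 with Torin1, and CDKN1B fell by 0.60 with feeding (adjusted p = 0.00253 in edgeR) without it. The interaction was 0.67 (adjusted p = 0.0728 in edgeR).

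MYC is a growth-promoting transcription factor. MYC had 151, 173 and 177 CPM in the 3 fed libraries with Torin1 and 258, 226 and 227 CPM in the 3 starved ones with Torin1. Without Torin1 it had 135, 173 and 126 CPM in fed libraries and 137, 107 and 134 CPM in starved ones. The starved libraries with Torin1 were the highest of the 12. MYC fell by 0.51 with feeding under Torin1 (adjusted p = 0.0253 in edgeR), and its feeding effect without Torin1 was 0.20 (adjusted p = 0.582). The interaction was −0.71 (adjusted p = 0.0817 in edgeR). PIM3, a serine/threonine kinase, had 0.62, the homeobox gene HOXB2 0.89 and RASSF1, a Ras-association tumour suppressor, 0.65. PLAGL2, a zinc finger transcription factor, had −0.65, SNHG12, a host gene of small nucleolar RNAs, −1.14, and ZBTB40 −0.62. FILIP1L, at 2.67, had the largest positive estimate of the 19, from low levels, between 0.321 and 0.557 CPM in starved cells with Torin1. AC068205.2, a noncoding entry, had the largest negative one, −2.69, from levels between 0.0836 and 3.69 CPM over the 12 libraries. The pseudogene SDHAP3 had −1.17, the antisense entry AL031714.1 −2.08 and ATXN7 1.38 (adjusted p = 0.148 in edgeR).

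Lists of other pathways that act with mTOR had 0 called interactions in edgeR and limma-voom, and DESeq2's Wald test called CDKN1B and MYC on them. They were ATF4 and amino acid supply (31 tested), growth inhibitor and stress genes of mTOR signalling (29), cholesterol synthesis (27), ribosome assembly (42), heat shock (20), the circadian clock (18), p53 targets (16), NF-kappa-B feedback (13), ID and BMP feedback (12), D-type cyclins and CDK inhibitors (10) and the MYC network (10). At an unadjusted p under 0.05 each list had between 0 and 3 positive and between 0 and 3 negative genes, beside 3.02% and 3.51% of all genes. There were 3 positive among the 31 of ATF4 and amino acid supply and 2 among the 13 of NF-kappa-B feedback. The 29 growth inhibitor and stress genes had 3 negative. Medians of these lists ran from −0.14 for p53 targets to 0.17 for NF-kappa-B feedback. ASNS, asparagine synthetase and a target of ATF4, had 51.5 ± 1.68 CPM in fed and 45.6 ± 2.95 CPM in starved cells with Torin1, against 356 ± 38.5 and 366 ± 18.6 CPM in fed and starved cells without it (mean ± SD, n = 3 each). Torin1 lowered it in both states, at −2.79 in fed and −3.0 in starved cells (log2), and the interaction was 0.21 (95% interval −0.05 to 0.48). HMGCS1, an enzyme of cholesterol synthesis, had an interaction of 0.02 (95% interval −0.38 to 0.43). On the list of FOXO targets and insulin signalling (29 tested), TXNIP was the 1 called by edgeR and limma-voom, and DESeq2's Wald test called CDKN1B as well. In edgeR 4 of the 29 were positive and 2 negative at an unadjusted p under 0.05, beside 3.02% and 3.51% of all genes.

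The same interaction after 4 h of feeding used the same starved libraries, so the times are not independent and are set side by side without a test of their difference. At 4 h, 4233 genes (25.8%) had a called interaction, 9.74% positive and 16% negative. KBTBD7 had −1.74 at 1 h and −3.39 at 4 h, with an adjusted p of 1.73e-11 at 4 h in edgeR. SLC30A1 had 1.56 and 0.05 (adjusted p = 0.895 at 4 h), and EGR3 2.86 and 1.68 (adjusted p = 0.0527 at 4 h). For TXNIP and ARRDC4 the sign at 4 h was the opposite of that at 1 h, at 0.62 and 1.19, with adjusted p values of 0.0262 and 9.71e-07 in edgeR. H4C14 had −1.35 at 4 h, H4C8 −1.68, SIK1 −2.70 and FP236383.2 −2.11, all called and of the same sign as at 1 h. SIK1B, with which SIK1 shares reads, had −0.12 at 4 h (adjusted p = 0.773).

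In the table of isoforms, 9 of 55491 tested had a called interaction (0.0162%), and 3270 had an unadjusted p under 0.05 (5.89%). Of the 9, 3 were the transcripts of the ribosomal entries above. The other 6 belonged to genes whose own interactions were between −0.14 and 0.13. AMOTL1, an angiomotin-like protein that binds YAP, had the 1 of these with reads in all 12 libraries. Its isoform ENST00000433060 had 55.2, 63.6 and 51.4 CPM in the fed and 55, 58.1 and 57.4 CPM in the starved libraries with Torin1, against 40.3, 28.8 and 35 CPM in the fed and 14.7, 12.9 and 13.7 CPM in the starved libraries without it. The starved libraries without Torin1 were the lowest, the fed ones without it came next, and the interaction was −1.33 (SE 0.18, adjusted p = 0.0346 in edgeR). It was called without the first starved library with Torin1, the first or the second fed one without it or the first starved one without it, and missed the threshold without each of the other 8.

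The other 5 isoforms were at 0 counts in all libraries of 1 group, so their fitted changes depend on the prior count and are not given here as sizes. ENST00000336783 of ATXN2L, an RNA-binding protein related to ataxin-2, had 42.6, 38 and 44.4 CPM in the fed and 26.7, 49.5 and 33.9 CPM in the starved libraries with Torin1, against 13.2, 5.99 and 9.96 CPM in the fed and 0 CPM in all 3 starved libraries without it. ENST00000317734 of SLC35C2, of the nucleotide sugar transporter family, had 6.55, 10.3 and 9.46 CPM in the fed and 11.4, 5.43 and 9.99 CPM in the starved libraries with Torin1, against 0 CPM in all 3 fed and 3.96, 6.0 and 7.09 CPM in the starved libraries without it. ENST00000502665 of CYP4V2, a fatty acid hydroxylase, was at 0 in starved cells without Torin1, ENST00000460402 of GNB1L, a WD-repeat protein, in fed cells with Torin1, and ENST00000534532 of NCAPD3, a condensin subunit, in starved cells with Torin1. Isoform counts are estimates that divide shared reads between transcripts, and a value of 0 in 3 libraries can come from that division, which was not tested. Among the transcripts of the called genes, the single transcript of SLC30A1 had an interaction of 1.60 with an adjusted p of 0.0569 over all isoforms, and that of KBTBD7 −1.70 with 0.14. For H4C14, the protein-coding ENST00000578186 had −0.91 (adjusted p = 0.844 in edgeR). ENST00000618193 of H4C14, annotated for nonsense-mediated decay, had −4.52 (adjusted p = 0.836 in edgeR). For H4C8, the protein-coding ENST00000377727 was at 0 counts in 5 of the 12 libraries. The highest group means of H4C8 transcripts were those of ENST00000634956, annotated for nonsense-mediated decay.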

How the data were processed

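Per the labels' protocols, TRIzol was used to extract total RNA, DNase I to clear DNA, and STAR in a 2-pass procedure to align the reads. The submitters' processing notes also name RSEM and DESeq2, without versions. The labels name a C. elegans build, whereas the identifiers are human Ensembl identifiers. Neither the human build nor the annotation or strand setting is given in the sources used here. The deposited gene and isoform tables hold expected counts, that is, estimated counts per gene or transcript, not normalised, and 3.32% of gene values were not whole.

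Counts were rounded, filtered (filterByExpr, minimum count 10), scaled with TMM factors and modelled by 6 group means for all 18 libraries in edgeR 4.0.16 (R 4.3.3), so that the 4 h fed groups share in the estimate of the spread (12 residual degrees of freedom, biological coefficient of variation 10.6%). Quasi-likelihood F tests were run with robust dispersions, with Benjamini-Hochberg adjustment over all 16414 genes or 55491 isoforms. A gene is called at an adjusted p under 0.05. Intervals are 95%. The test was tried on simulated counts, whose results are not given here.

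Named genes were all called genes, those next by p up to 30, 2 members of each list, genes called in both arms and 13 chosen genes; all others, mostly genes behind a count of feeding calls (MT2A, ATF3, H1-4 and the like), were picked once their values were known. A gene that the rule takes is not reported here. The 25 lists, the genes and the comparison itself were chosen with earlier results of these data known. Of the tested identifiers, 16271 had a symbol, and GENCODE release 29 served for exon counts and transcript names. Promoters came from RefSeq (GRCh38.p14), positions counted with the annotated start as 0. Alternatives were limma-voom (limma 3.58.1), the Wald test of DESeq2 1.42.0, its size factors, library totals, other filters, no robust dispersions, no mitochondrial genes, the 12 libraries alone, replicate number as a block, each library left out and, chosen after seeing the data, near-identical copies summed.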

Additional observations from a re-analysis of the deposited data

Results flagged for a closer look

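Each result here is listed because the effect of 1 h of feeding differed between cells with and without Torin1 by the test of the difference itself, in edgeR's quasi-likelihood test. Groups of 3 were not searched for single outlying libraries. Among genes, the log2 differences were 1.56 for SLC30A1, 2.86 for EGR3, −1.37 for TXNIP, −0.77 for ARRDC4, −1.74 for KBTBD7, −2.47 for SIK1, −2.43 for H4C8 and −1.91 for H4C14. They were −2.36 for each of FP236383.2, FP671120.3 and FP236383.3, which share all counts and lie in 18S ribosomal RNA genes.

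Among isoforms, the difference was −1.33 for ENST00000433060 of AMOTL1 and −2.34 for each of ENST00000625598, ENST00000631211 and ENST00000627981, the transcripts of those ribosomal entries. The fitted differences of the other 5 were 9.05 for ENST00000317734 of SLC35C2, 12.67 for ENST00000534532 of NCAPD3, −9.67 for ENST00000336783 of ATXN2L, −6.74 for ENST00000502665 of CYP4V2 and −7.86 for ENST00000460402 of GNB1L. Each of these 5 has at least 1 group at 0 counts, so the fitted values depend on the prior count and are neither sizes nor bounds.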

How the results depend on the processing

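The number of called genes, 11 in the reported fit, depended on the setting. It was 77 with no filter on low counts (29840 genes tested), 39 with DESeq2's Wald test, 23 with the replicate block, 7 with near-identical copies summed (chosen after seeing the data), 4 with the 12 libraries alone and 3 with limma-voom. Leaving out 1 library gave between 3 and 39. It was 3 without the second fed library with Torin1 or the third starved one with Torin1, and 39 without the first fed library without Torin1, of which 9 were among the 11. DESeq2's size factors gave 8 and library totals 12, with 2 and 3 positive. All 11 were among the 77 and the 39 by DESeq2. The cause of these differences was not tested, beyond the number of genes or libraries in the fit. Isoform calls, 9 in the reported fit, numbered 3 with the replicate block and between 2 and 18 with 1 library left out (2 without the second or the third starved library with Torin1, 18 without the second fed one without Torin1).

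Same-numbered libraries had correlations of their deviations between −0.03 and 0.16, over 0.1 in 1 of 18 pairs, so the numbers were not taken as pairing; of the 23 genes called with the replicate block, 7 were among the 11. H4C14 (adjusted p = 0.0718) and the 3 ribosomal entries (0.0517) were not, and DDIT4 was called. Some values changed sign. HMGCS1 had −0.0062 with a mean of at least 5 CPM required, and between −0.12 and 0.14 with 1 library left out. The corresponding ranges were −0.28 to 0.52 for EGR1, −0.57 to 0.31 for CD14, −4.86 to 4.06 for DCN (0.0498 with limma-voom), −0.13 to 0.70 for CLDN5 and −0.41 to 0.26 for ESAM. The Torin1 effect in fed cells ranged from −0.25 to 0.0289 for H4C14 and from −0.14 to 0.42 for EGR3. With copies summed, the Torin1 effect in starved cells was −0.50 for SIK1 with SIK1B, and for H4C14 with H4C15 the feeding effect with Torin1 was 0.093 and the Torin1 effect in fed cells 0.62. Low counts limit H4C8 and SIK1, and EGR3 in starved cells with Torin1, where it was under 1 CPM.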

Other observations

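DDIT4, CCNG2 and JUNB had Torin1 effects past the test in both feeding states. They had no called interaction in the reported edgeR fit, DESeq2's Wald test or limma-voom, whereas edgeR with the replicate block called DDIT4. DDIT4, an inhibitor of mTORC1 induced by stress, had 11.6 ± 3.23 CPM in fed and 21.7 ± 4.92 CPM in starved cells with Torin1, against 82 ± 23.8 CPM and 93.1 ± 26.4 CPM in fed and starved cells without it (mean ± SD, n = 3 each). Its interaction was −0.73 (95% interval −1.66 to 0.19). CCNG2, a FOXO target, had 34.6 ± 0.399 CPM and 39.7 ± 3.77 CPM in fed and starved cells with Torin1, against 55.9 ± 2.07 CPM and 59.2 ± 2.95 CPM in fed and starved cells without it, and an interaction of −0.12 (95% interval −0.40 to 0.16). JUNB, an AP-1 subunit, had 15.9 ± 1.02 CPM and 11.2 ± 2.94 CPM in fed and starved cells with Torin1, against 49.1 ± 7.92 CPM and 57.1 ± 10.9 CPM without it, and an interaction of 0.71 (adjusted p = 0.44 in edgeR).

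Of the 11 called entries, 4 have a single exon in GENCODE release 29, namely KBTBD7 and the 3 ribosomal entries with identical counts, beside 6.72% of the 16253 tested genes with an exon annotation. COL1A2, a fibroblast collagen, had 0.684, 0.420 and 0.360 CPM in fed and 0.0696, 0 and 0 CPM in starved libraries with Torin1, against 0.275, 4.75 and 0.0893 CPM in fed and 6.90, 0.334 and 0.276 CPM in starved libraries without it, so that 1 library of each group without Torin1 held most of the reads. DCN, another fibroblast marker, was highest in those same libraries. It had 1.27 CPM in the second fed and 1.75 CPM in the first starved library without Torin1. The source of these reads was not tested.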
